A study of Homo sapiens with 2 samples.

Results

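The transcription factors FEV, GATA2, GATA3, LMX1B, NKX2-2, INSM1, NKX6-1, POU3F2 and SOX4, all tied to the specification or identity of serotonin neurons, were followed through single-cell RNA counts of human serotonin neurons (SNs). They were taken by gene symbol from the gene lists of both libraries, and all 9 were found among the 61487 genes counted. The neurons came from the H9 (WA09) human embryonic stem cell line and were sorted for EGFP on day 42 of differentiation. The first line carried a TPH2-EGFP knock-in and is labelled WT. The other carried the same knock-in together with a FOXA2 knockout, made as a premature stop by non-homologous end joining, and is labelled FKO. Each line was 1 clone, and each gave 1 library.

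Barcodes labelled WT had a median of 10960 unique molecular identifiers (UMIs), and those labelled FKO a median of 6670. The libraries shared 21 barcode sequences, 0.190% of those in WT and 0.239% of those in FKO. Filters on depth, genes, mitochondrial UMIs and doublets kept 5748 cells (52.0%) of WT, with a median of 12459 UMIs, and 6978 cells (79.2%) of FKO, with a median of 6927. The median share of mitochondrial UMIs was 9.18% in WT and 5.61% in FKO before the filters, and 7.82% and 5.33% after. Levels are pooled UMIs of a gene per 1000000 UMIs of the kept cells (CPM). With 1 library for each genotype no test between genotypes was possible, and the 95% intervals cover counting error only, not differences between cultures or lines. In pooled sums, fewer cells of a type and less RNA per cell cannot be told apart.

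FOXA2 itself, the forkhead factor of the floor plate that the knockout targets, had more transcript in the library labelled FKO. Its level was 4.35 CPM (3.90 to 4.84, 334 UMIs) in the library labelled WT and 21.8 CPM (20.6 to 23.1, 1264 UMIs) in the one labelled FKO. On the log2 scale FKO over WT was 2.33 (2.15 to 2.51), and FOXA2 was higher in FKO in 7 of 7 pairs of matched cell clusters. Its interval lay above 0 in 6 of those pairs. A 3′ count does not show a small insertion or deletion, and it checks nothing outside the part deleted or changed. Every direction between the libraries therefore rests on their labels.

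Serotonin neurons arise from ventral hindbrain progenitors that express NKX2-2 and NKX6-1, homeodomain proteins of the sonic hedgehog patterned neural tube. As these progenitors leave the cell cycle, INSM1, GATA2, GATA3, LMX1B and FEV come on. FEV, LMX1B and GATA factors then bind and keep active the genes of serotonin synthesis, storage and reuptake. POU3F2 and SOX4 act more widely in young neurons.

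The genes lie on separate chromosomes for the most part, by the RefSeq annotation of GRCh38.p14. FEV is on chromosome 2 (218981087 to 218985184), GATA2 on chromosome 3 (128479422 to 128493201), GATA3 on chromosome 10 (8045333 to 8075198) and LMX1B on chromosome 9 (126613928 to 126701032). NKX6-1 is on chromosome 4 (84491985 to 84499292). Chromosome 20 holds NKX2-2 (21511017 to 21522689) and INSM1 (20368104 to 20370949), as well as FOXA2 (22580998 to 22585490). POU3F2 (98834574 to 98839458) and SOX4 (21593751 to 21598619) lie far apart on chromosome 6.

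Promoters were searched on both strands for letters that GATA factors (AGATAA or AGATAG as well as TGATAA or TGATAG), ETS factors such as FEV (CCGGAA) and homeodomain factors (TAATTA) are known to bind. The windows ran from 250 bases before to 50 bases after the gene start and were available for 8 of the 9 genes, all but INSM1. GATA letters were in 0 of the 8 windows and in 24.97% of all 35116 windows. ETS letters were in 1 of the 8, GATA3, and in 17.3% of all windows, and the homeodomain letters were in 1 of the 8, FEV, and in 4.84% of all. A match is a description of letters and not evidence of binding. The windows of FEV (chr2:218985135-218985434, minus strand), GATA3 (chr10:8045083-8045382, plus strand) and TPH2 (chr12:71938595-71938894, plus strand) are given from RefSeq GRCh38.p14. FEV and GATA3 were the only ones of the 8 with a match, and TPH2 is the gene that carried EGFP. The other windows held no match and are not shown. Among them are GATA2 and LMX1B, which like FEV and GATA3 were higher in cells with a TPH2 UMI. Capitals mark the homeodomain letters in FEV, the ETS letters in GATA3 and the GATA letters in TPH2, read on either strand.

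FEV: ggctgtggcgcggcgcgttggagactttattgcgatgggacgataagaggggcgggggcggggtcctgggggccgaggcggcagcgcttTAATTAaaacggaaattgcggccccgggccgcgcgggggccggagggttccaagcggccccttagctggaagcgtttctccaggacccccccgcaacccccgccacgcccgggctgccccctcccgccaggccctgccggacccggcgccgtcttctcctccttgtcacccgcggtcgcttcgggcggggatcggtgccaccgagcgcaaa

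GATA3: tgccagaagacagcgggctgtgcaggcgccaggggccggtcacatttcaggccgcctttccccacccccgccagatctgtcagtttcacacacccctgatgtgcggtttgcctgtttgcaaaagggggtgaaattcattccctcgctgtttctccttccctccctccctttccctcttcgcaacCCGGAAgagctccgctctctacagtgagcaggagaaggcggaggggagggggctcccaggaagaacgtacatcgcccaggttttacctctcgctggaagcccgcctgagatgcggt

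TPH2: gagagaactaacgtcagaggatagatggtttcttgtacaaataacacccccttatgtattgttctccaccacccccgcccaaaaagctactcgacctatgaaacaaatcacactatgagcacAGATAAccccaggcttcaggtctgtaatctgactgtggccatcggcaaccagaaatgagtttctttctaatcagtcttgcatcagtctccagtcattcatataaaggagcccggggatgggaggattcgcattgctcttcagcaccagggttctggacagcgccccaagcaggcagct

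FEV, the ETS factor that activates TPH2 and the serotonin transporter gene, had the lowest ratio of FKO over WT among the 9 factors. Its level was 1584 CPM (1575 to 1593) in WT and 908 CPM (900.5 to 916) in FKO. As a log2 ratio, FKO over WT, this was -0.80 (-0.82 to -0.79). The median cell held 19 FEV UMIs in WT and 7 in FKO, where cells were also shallower. With every cell thinned to 2000 UMIs, FEV was found in 89.2% of WT and 76.0% of FKO cells.

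GATA3, a zinc-finger factor needed by caudal serotonin neurons, was at 595 CPM (589.9 to 600.9) in WT and 817 CPM (809.5 to 824) in FKO, a log2 ratio of 0.46 (0.44 to 0.47). Median-of-ratios scaling, which sets the median of all genes to 0, put the same ratio at -0.0186. At 2000 UMIs it was found in 65.9% of WT and 73.8% of FKO cells. GATA2, its paralog that acts upstream of FEV in the rostral hindbrain, was at 24.2 CPM (23.1 to 25.3) in WT and 41.8 CPM (40.2 to 43.5) in FKO, a log2 ratio of 0.79 (0.70 to 0.88). Both GATA factors were thus higher in FKO where FEV was lower. The other paralogs GATA1, GATA4, GATA5 and GATA6 had at most 1 UMI in either library.

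LMX1B, the LIM-homeodomain factor that maintains serotonergic gene expression after neurons are born, had the highest ratio of the 9. It was at 32.9 CPM (31.6 to 34.2) in WT and 71.4 CPM (69.2 to 73.6) in FKO, a log2 ratio of 1.12 (1.05 to 1.19). The share of cells with an LMX1B UMI at 2000 UMIs was 6.52% in WT and 13.7% in FKO.

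NKX2-2 and NKX6-1, the progenitor factors, had similar pooled levels in the libraries. NKX2-2 was at 9.56 CPM (8.88 to 10.3) in WT and 8.72 CPM (7.98 to 9.52) in FKO, with a log2 ratio of -0.13 whose interval held 0 (-0.30 to 0.03). NKX6-1 was at 9.12 CPM (8.45 to 9.82) in WT and 8.24 CPM (7.51 to 9.01) in FKO, with a ratio of -0.15 (-0.32 to 0.02). Neither pooled ratio was beyond counting error, although both genes differed inside matched clusters, NKX2-2 in opposite directions. The NKX2-2 ratio depended on the cells used. It was -1.05 with at most 5% mitochondrial UMIs, which kept 340 WT cells, 0.19 in cells thinned to 2000 UMIs and -0.53 in cells with a TPH2 UMI, where NKX6-1 had -0.47. INSM1, a zinc-finger factor of newborn neurons and endocrine cells, was at 19.8 CPM (18.8 to 20.8) in WT and 17.1 CPM (16.1 to 18.2) in FKO, a ratio of -0.21 (-0.32 to -0.09).

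The general neuronal factors were both higher in FKO. POU3F2, a POU-homeodomain factor of the nervous system also known as BRN2, was at 35.5 CPM (34.2 to 36.9) in WT and 65.0 CPM (63.0 to 67.2) in FKO, a log2 ratio of 0.87 (0.80 to 0.95). SOX4, an SRY-related factor of immature neurons, was at 837 CPM (830.3 to 843) in WT and 1176 CPM (1167 to 1185) in FKO, a ratio of 0.49 (0.48 to 0.51). SOX11, the close relative of SOX4, was at 420.5 CPM in WT and 1271 CPM in FKO, a ratio of 1.60.

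**Figure D1:**
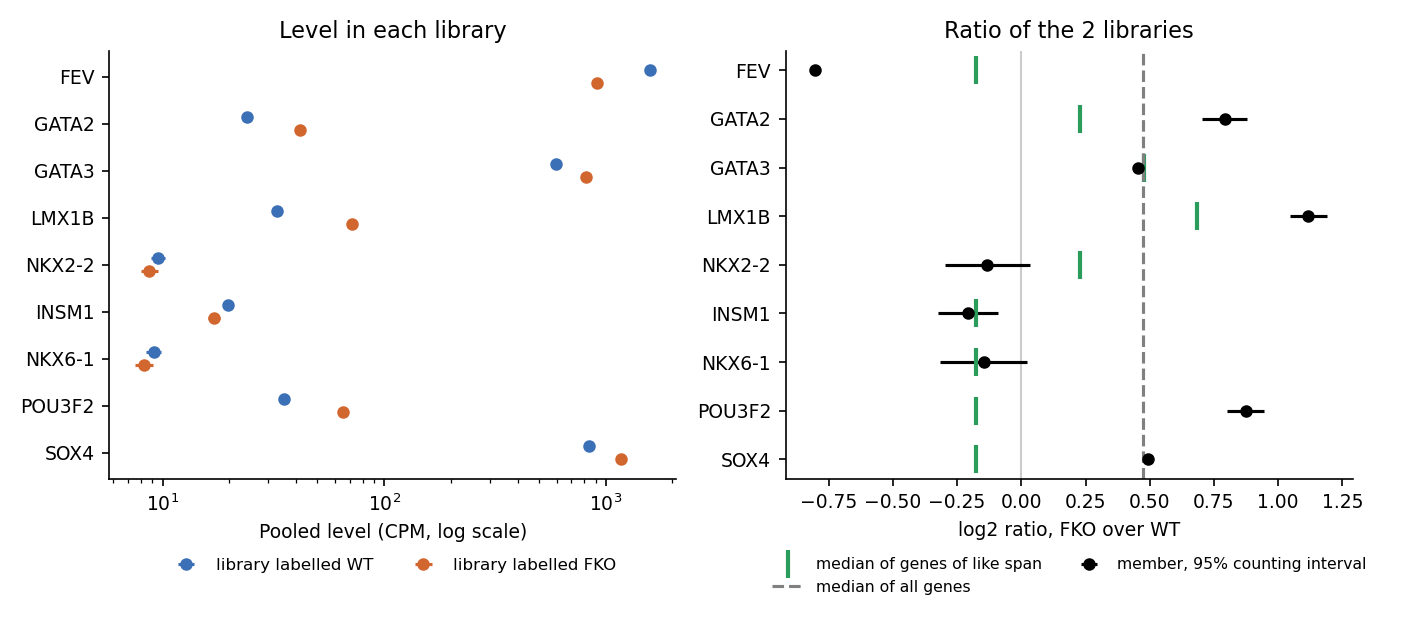
Pooled CPM of the 9 factors in the libraries labelled WT and FKO on a log axis (left) and the log2 ratio of FKO over WT with the median of all genes and of genes of like span (right), with 95% counting intervals. FEV sits at 1584 CPM in WT and 908 CPM in FKO, whereas GATA2, GATA3, LMX1B, POU3F2 and SOX4 are higher in FKO.

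Most genes had higher CPM in FKO, and the factors are set against that shift here. Among 9676 genes with at least 10 CPM in either library, the median log2 ratio was 0.47 and 72.5% of genes lay above 0. The median of the 9 factors was 0.46, with 5 above 0 and 4 above the median of all genes. Of the 9, 7 reached 10 CPM in a library, all but NKX2-2 and NKX6-1. At least 2-fold higher in FKO was 1 factor, LMX1B, beside 20.7% of all genes, and at least 2-fold lower were 0 factors, beside 1.74% of all genes. FEV lay below -0.73, the value that the lowest 5% of all genes fall under. With that median subtracted, GATA3 (-0.02) and SOX4 (0.02) sat at the shift. GATA2 (0.32), POU3F2 (0.40) and LMX1B (0.64) were above it, and NKX2-2 (-0.61), NKX6-1 (-0.62), INSM1 (-0.68) and FEV (-1.28) were below it. The place of the GATA factors depended on the mitochondrial filter. With at most 20% mitochondrial UMIs GATA2 had a ratio of 0.49 and the median of all genes was 0.49, and with at most 5% GATA3 had 0.86 beside a median of 0.47.

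The shift moved with the length of the gene on the chromosome. The 9346 genes with a RefSeq span were ordered by it and divided into 5 groups of like size. From the shortest group to the longest the median log2 ratio went from -0.18 through 0.23, 0.48 and 0.68 to 0.91. FEV, which spans 4098 bases, lay in the shortest group and differed from its median by -0.63. POU3F2 and SOX4, with spans of 4885 and 4869 bases, lay in the same group and were above its median by 1.05 and 0.67. LMX1B, in the next-to-longest group with 87105 bases, was above its median by 0.43, and GATA2 was above that of its group by 0.56. NKX2-2 differed by -0.36, and GATA3 (-0.02), INSM1 (-0.03) and NKX6-1 (0.03) sat at the median of genes of like span. This comparison was chosen after seeing the data, and the part of gene length in the ratios was not tested.

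A share of cells with a UMI includes free RNA, so the shares were set beside those of a cell class that should lack serotonergic factors. FKO cluster 10 held 193 mesenchymal-like cells, led by EPYC, OGN, MGP, COL1A2 and PRRX1, with a median of 8277 UMIs against 6927 in the whole library. Its summed level of 9 mesenchymal markers was 7003 CPM, and that of cycling markers was 824 CPM. At 2000 UMIs a cell, FEV was found in 13.5% of these cells, GATA3 in 12.0%, LMX1B in 4.17% and GATA2 in 1.56%. The FEV, GATA3 and LMX1B levels there were 0.156, 0.155 and 0.168 of the library level, and that of GATA2, from 8 UMIs, was 0.105. TPH2 was at 0.183 and SLC6A4 at 0.438, so the proportion was not the same for every serotonergic gene. INSM1 and NKX6-1 were found in 0% of these cells, with an upper limit of 1.90%, and NKX2-2 in 1.04% (0.126% to 3.71%). At full depth NKX2-2 (9 UMIs) was at 0.564 of its library level, NKX6-1 (8 UMIs) at 0.531 and INSM1 (4 UMIs) at 0.128. POU3F2 and SOX4, which are not restricted to serotonin neurons, were found in 9.38% and 76.6%. No cluster of this kind was found in the library labelled WT, so no such background could be given there. The WT cluster with the most mesenchymal markers, cluster 7, had 618 CPM of them. It was led by cycling genes with LUM and SHH and also had 809 CPM of floor plate markers.

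Against that background FEV, GATA3, GATA2 and LMX1B had larger shares in the whole FKO library, at 76.0%, 73.8%, 8.72% and 13.7%. INSM1 at 3.54% was above its background upper limit of 1.90%. Whether UMIs in the mesenchymal-like cluster came from free RNA, remaining doublets or expression was not tested. NKX2-2 at 1.79% and NKX6-1 at 1.33% of all FKO cells lay within the background interval. With 192 thinned cells that interval is too wide to tell shares this low from free RNA, so they are read neither as expression nor as background.

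Within each library, cells with a TPH2 UMI had more of the core serotonergic factors than cells without one. TPH2-negative cells, 1633 in WT and 3313 in FKO, were paired with TPH2-positive cells within 5% of their total UMIs where such a cell was left, giving 1593 pairs in WT (median UMIs 11454 and 11453) and 3066 pairs in FKO (6914 and 6641). TPH2 encodes the enzyme that starts neuronal serotonin synthesis, and all cells had been sorted for the EGFP placed at that gene. Higher in positive cells were 4 factors in each library, the same 4, and 5 were lower, beside 54.97% of all genes higher in WT and 56.8% in FKO. The count is no more than the share of all genes. None of the 9 was at least 1.5-fold higher in either library, beside 0.496% of 8466 genes in WT and 0.47% of 9781 genes in FKO. At least 1.5-fold lower were 0 factors in WT, beside 2.75% of genes, and 2 in FKO, NKX2-2 and NKX6-1, beside 3.82%.

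FEV was at 1713 CPM in TPH2-positive and 1211 CPM in TPH2-negative cells of WT, a log2 ratio of 0.50 (0.48 to 0.52), and at 1045 and 775 CPM in FKO, a ratio of 0.43 (0.40 to 0.46). GATA3 had ratios of 0.51 (0.48 to 0.55) in WT, from 662 and 463.5 CPM, and 0.44 (0.41 to 0.47) in FKO, from 918 and 675 CPM. GATA2 had 0.54 (0.35 to 0.73) and 0.39 (0.26 to 0.52), and LMX1B had 0.53 (0.36 to 0.70) and 0.37 (0.26 to 0.47). The median ratio of all genes was 0.02 in WT and 0.03 in FKO. All 4 factors were thus higher in TPH2-positive cells of both libraries. The size depended on which cells were compared. Without the cycling and mesenchymal-like clusters FEV had 0.32 in WT and 0.27 in FKO, and GATA3 had 0.34 and 0.29. In cells thinned to 2000 UMIs, FEV had 0.21 in WT and 0.19 in FKO, and GATA2 in FKO had -0.0167. Over all alternatives the FEV ratio lay between 0.17 and 0.70 in WT and between 0.12 and 0.50 in FKO.

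The progenitor factors ran the other way. In FKO, NKX6-1 was at 5.22 CPM in positive and 11.9 CPM in negative cells, a log2 ratio of -1.18 (-1.50 to -0.87), and NKX2-2 was at 6.63 and 12.2 CPM, a ratio of -0.88 (-1.17 to -0.59). In WT, NKX6-1 had a ratio of -0.56 (-0.86 to -0.27), and NKX2-2 was flat at -0.04 (-0.33 to 0.25). INSM1 had -0.15 (-0.35 to 0.05) in WT and -0.44 (-0.65 to -0.23) in FKO. Without the cycling cluster the WT values of NKX2-2 and INSM1 were both 0.12, so neither had a settled direction there. POU3F2 was lower in positive cells of both, at -0.48 (-0.63 to -0.34) and -0.54 (-0.65 to -0.44), and SOX4 had -0.07 (-0.10 to -0.04) and -0.13 (-0.15 to -0.11). With at most 5% mitochondrial UMIs, which left 118 WT pairs, SOX4 in WT was at 0.0910.

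**Figure D2:**
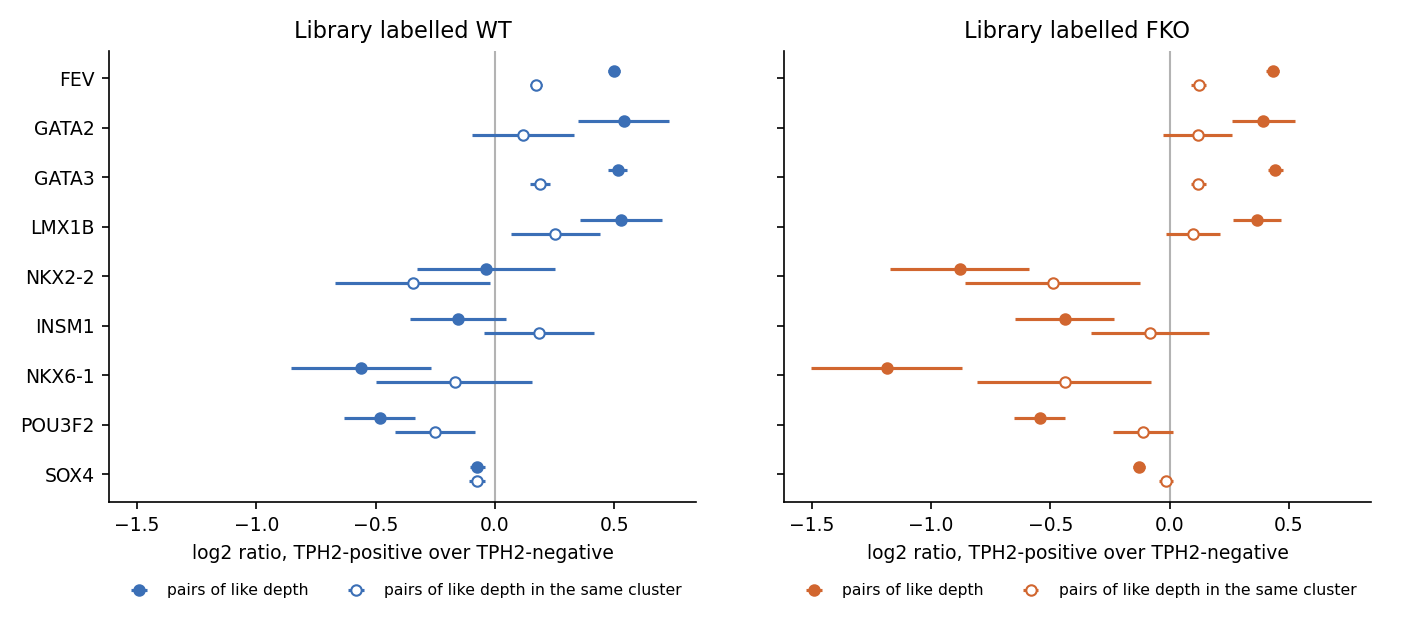
Log2 ratio of TPH2-positive over TPH2-negative cells of like depth for each factor in the libraries labelled WT and FKO, with 95% counting intervals (filled, pairs of like depth; open, pairs also from the same cluster). FEV, GATA2, GATA3 and LMX1B in the filled points lie between 0.37 and 0.54 in both libraries, and NKX6-1 lies at -0.56 in WT and -1.18 in FKO.

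The genes of serotonin handling served as a measure of what TPH2 detection separates. All 6 tested genes of that list were higher in TPH2-positive cells of WT and all 7 in FKO, with median ratios of 0.70 and 0.76, beside the same 54.97% and 56.8% of all genes. At least 1.5-fold higher were 4 and 5 of them, beside 0.496% and 0.47% of all genes, and the FKO interval of QDPR held 0 (0.09, -0.01 to 0.19). The transporter gene SLC6A4 had 0.96 and 1.16, the vesicular transporter gene SLC18A2 0.75 and 0.76, and the oxidase gene MAOB 0.85 in both. A ranking over both libraries covered 2107 genes and did not include SLC6A4 or SLC18A2. Its 5 highest ratios were led by MAOB and the secretory granule gene CHGB (0.84 and 0.72). The synaptic vesicle gene SYT1 (0.64 and 0.61), GCH1 (0.66 and 0.60) and CXCR4 (0.60 and 0.57) followed, and all 5 were above FEV. The 5 lowest ratios of the same ranking were those of SULF1 (-3.72 and -2.97), IGFBP5 (-3.06 and -2.85), SPARC (-3.06 and -2.78), IFITM3 (-2.45 and -3.18) and ANXA2 (-1.55 and -2.72). FOXA2 in FKO had -1.82.

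Part of the contrast lay between clusters rather than inside them. When pairs were also taken from the same cluster, an alternative chosen after seeing the data, FEV had 0.17 (0.15 to 0.20) in WT and 0.12 (0.09 to 0.15) in FKO, and GATA3 had 0.19 (0.15 to 0.23) and 0.12 (0.09 to 0.15). LMX1B had 0.25 (0.07 to 0.44) and 0.10 (-0.01 to 0.21). GATA2 had 0.12 in both with intervals that held 0. NKX6-1 had -0.17 (-0.50 to 0.16) in WT and -0.44 (-0.81 to -0.08) in FKO, and NKX2-2 had -0.345 (-0.67 to -0.02) and -0.49 (-0.86 to -0.12). POU3F2 had -0.25 (-0.42 to -0.08) in WT but -0.11 (-0.24 to 0.02) in FKO, and SOX4 had -0.08 (-0.11 to -0.04) in WT but -0.02 (-0.04 to 0.01) in FKO. INSM1 had 0.18 (-0.04 to 0.41) and -0.08 (-0.33 to 0.16). FEV and GATA3 thus kept a smaller difference inside clusters of both libraries, and LMX1B in WT. None was detectable for GATA2 and INSM1 in either library, for NKX6-1 in WT, or for LMX1B, POU3F2 and SOX4 in FKO.

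GATA3 was higher with 1 TPH2 UMI than with 0 in cells thinned to 2000 UMIs. It was at 588 CPM in WT cells with 0 TPH2 UMIs, 685 with 1, 698 with 2 and 793 with 3 or more. In FKO it was at 794, 944, 948 and 1094 CPM. The intervals at 0 and 1 did not overlap in either library, but those at 1, 2 and 3 or more did. FEV was at 1538, 1744, 1839 and 1872 CPM in WT and at 898, 1033, 983 and 1059 in FKO. NKX6-1 had 8.54 CPM with 0 TPH2 UMIs and 2.77 CPM (1.11 to 5.71, 7 UMIs) with 1 in FKO, and 9.19 and 5.54 CPM (2.95 to 9.47) in WT. At 2 or more TPH2 UMIs it had at most 4 UMIs in a group of cells in either library, too few to give an order.

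Cells positive for other serotonergic genes, paired in depth in the same way, also had more FEV. For DDC, the decarboxylase that completes serotonin synthesis, the FEV ratio was 0.91 in WT and 0.75 in FKO and the GATA3 ratio 0.71 and 0.66. For MAOB the FEV ratios were 0.40 and 0.38, and for SLC6A4 0.13 and 0.32. INSM1 had -1.04 and -0.60 by DDC, the lowest of the factors in WT. GATA2 was higher with some of these genes and not with others. In WT it had -0.13 (-0.42 to 0.15) by DDC, -0.21 (-0.43 to -0.0019) by SLC6A4, -0.04 (-0.25 to 0.16) by SLC18A2 and 0.27 (0.09 to 0.45) by MAOB, and in FKO it had 0.18 (0.01 to 0.35) by DDC, with intervals that held 0 by the others.

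At the level of pairs of factors, FEV and GATA3 were found together more often than the product of their shares in both libraries. In cells thinned to 2000 UMIs the pair was found in 61.8% of WT cells against a product of 58.7%, a ratio of 1.05, and in 60.9% of FKO cells against 56.04%, a ratio of 1.09. GATA3 was found in 69.3% of WT cells with a FEV UMI and in 37.5% of those without, and in 80.2% and 53.5% of FKO cells. This pair stayed above its product in all 6 draws of the thinning, 5 of them run after seeing the data. Of 36 pairs, 3 in WT and 6 in FKO were above the product with their interval, and 1 and 4 were below. Without the cycling WT cluster 7, the cycling FKO cluster 9 and the mesenchymal-like FKO cluster 10, 4 in WT and 2 in FKO were above, with FEV and GATA3 among them in both.

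In FKO the pairs GATA2 with GATA3, at a ratio of 1.13, and NKX2-2 with INSM1, at 2.75, were also above their products in all 6 draws. Neither was above without the cycling and mesenchymal-like clusters, where the ratios were 1.09 and 2.28 with intervals that held the product. The second pair rested on 12 cells, 0.175% against 0.0635%. In WT the same pair was also found in 12 cells, but was above its product in 1 of 6 draws. GATA2 with INSM1 in WT, 33 cells and a ratio of 2.47, was above in 2 of 6. These WT pairs of sparse genes therefore depend on the draw.

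Pairs below their product joined a core factor to a progenitor or general factor. GATA3 with POU3F2 had 0.84 in WT and 0.91 in FKO. In FKO, FEV with POU3F2 had 0.89, FEV with NKX2-2 0.76 and GATA3 with NKX2-2 0.73. None of them was below in every draw. Without the cycling and mesenchymal-like clusters, the FKO intervals of GATA3 with POU3F2 (0.93) and FEV with NKX2-2 (0.79) held the product. The other pairs stayed below, and FEV with NKX6-1 in FKO (0.74) was then below as well. FEV was found in 57.7% of FKO cells with an NKX2-2 UMI and in 76.3% of those without, whereas in WT the shares were 92.6% and 89.1%. NKX2-2 and NKX6-1 were together in 0 FKO cells against a product of 0.0238%, below the upper limit of 0.0537%, so no difference was detectable.

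**Figure D3:**
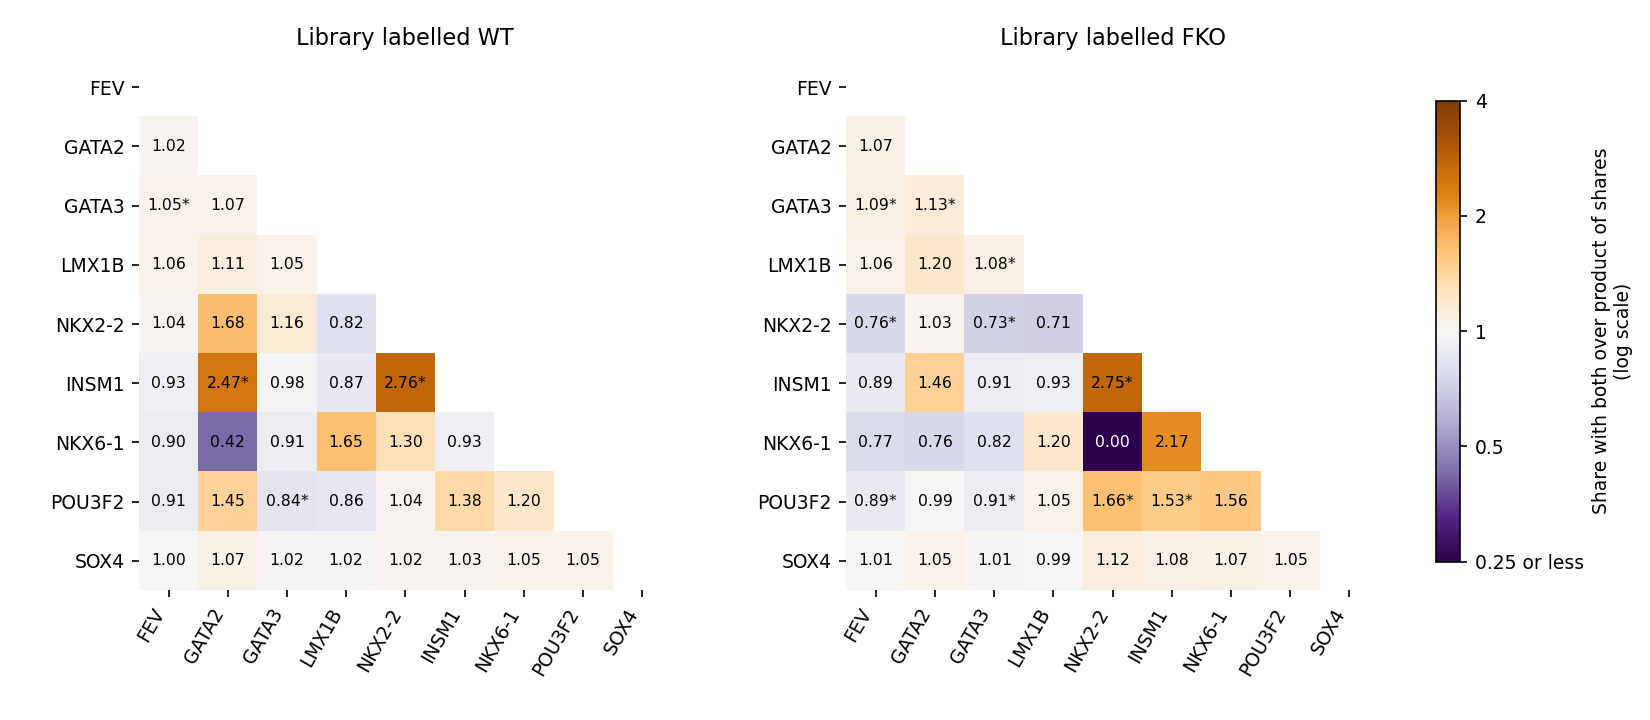
Ratio of the share of cells with both factors to the product of their shares for the 36 pairs in the libraries labelled WT and FKO, in cells thinned to 2000 UMIs. Asterisks mark intervals that do not hold the product. FEV with GATA3 is above 1 in both, at 1.05 in WT and 1.09 in FKO, and GATA3 with POU3F2 is below 1 in both.

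A thinned cell held a median of 3 of the 9 factors in each library. Cells with a TPH2 UMI held a mean of 2.72 factors in WT and 2.87 in FKO, against 2.50 and 2.66 in cells without. At least 5 factors were found in 1.54% of WT and 3.03% of FKO cells.

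Clustering each library apart, without the 9 factors, the fixed lists, or mitochondrial and ribosomal genes, gave 10 clusters in WT and 11 in FKO, the last of which held 24 cells. Clusters of at least 50 cells, 10 in each library, are ordered here. The highest cluster stood apart from all the others for 3 factors in WT and 7 in FKO, but these counts changed with the clustering, to 6 in WT and 3 in FKO with 20 dimensions. FEV was highest in WT cluster 4, led by CXCR4, at 2304 CPM, followed by cluster 3, led by SLC17A8, at 1896 CPM. It was lowest in cluster 7, led by the cell-cycle genes MKI67 and TOP2A, at 293 CPM. In FKO it was highest in cluster 5, led by CAV1, at 1245 CPM, and lowest in the mesenchymal-like cluster 10 at 142 CPM. Of 9 neighbouring steps in the order of clusters, 7 in WT and 6 in FKO had intervals that did not overlap.

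GATA3 had its highest level in WT cluster 3 at 826.5 CPM and its lowest in cluster 7 at 104.5 CPM. In FKO it ran from 1217 CPM in cluster 5 to 127 CPM in cluster 10. LMX1B was highest in WT cluster 6 at 44.5 CPM, with cluster 3 at 41.6 CPM not apart from it, and in FKO cluster 7, which shared SLC17A8 with WT cluster 3, at 127 CPM. GATA2 was highest in WT cluster 3 at 55.5 CPM. In FKO it was highest in cluster 5, not apart from cluster 2 at 55.3 CPM. The SLC17A8-led WT cluster 3 thus ranked first or second for FEV, GATA2, GATA3 and LMX1B, and it also had the highest TPH2 level of WT, 457 CPM.

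NKX6-1 and POU3F2 were highest in other clusters. NKX6-1 was highest in WT cluster 9 at 37.0 CPM and in FKO cluster 6 at 39.0 CPM, both led by LHX1 and LHX5-AS1, and POU3F2 was highest in the same clusters at 90.5 and 181 CPM. There FEV was at 405 and 362.5 CPM and GATA3 at 146.5 and 411 CPM. In FKO cluster 6 NKX6-1 stood at 4.73 of its library level, POU3F2 at 2.79 and NKX2-2 at 2.99, while TPH2 stood at 0.373. In WT cluster 9 NKX6-1 stood at 4.06 and POU3F2 at 2.55, but NKX2-2 was at its lowest of all WT clusters, 2.50 CPM. Both clusters were below the library level for FEV, GATA2, GATA3 and LMX1B. GATA2 in FKO cluster 6, at 23.8 CPM, was however no lower than in FKO cluster 4, at 22.7 CPM.

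NKX2-2 did not keep to those clusters. In WT it was highest in cluster 8 at 22.9 CPM and next in the SLC17A8-led cluster 3 at 18.6 CPM, not apart from it. Among FKO clusters of at least 50 cells NKX2-2 was highest in cluster 7 at 45.7 CPM (38.0 to 54.4), and was found there in 8.84% of cells at 2000 UMIs. Clusters 6 and 9 followed with 5.02% and 6.87%. The first 5 FKO clusters had 0.234% to 1.09%, beside 1.04% in the mesenchymal-like cluster. INSM1 in FKO was highest in cluster 6 (38.4 CPM), not apart from the cycling cluster 9 (37.7 CPM), and in WT in cluster 8 (63.1 CPM), led by the stress genes ATF3 and DDIT3, and cycling cluster 7 (52.4 CPM). SOX4 was highest in FKO cluster 7 at 1973 CPM, and in WT clusters 9 and 1 had 1065 and 1062 CPM.

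**Figure D4:**
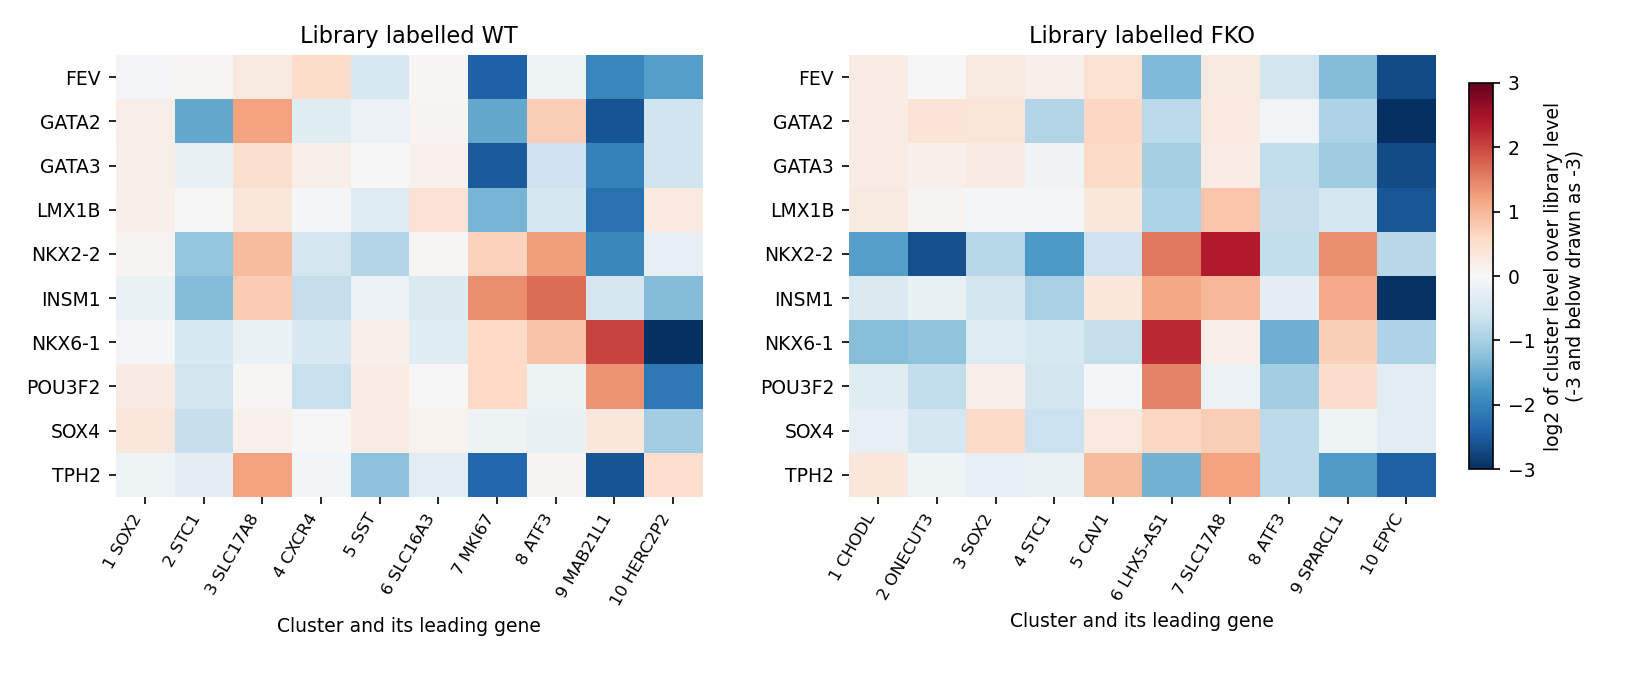
Level of each factor in each cluster of the libraries labelled WT and FKO, as the log2 of the cluster level over the library level (red higher, blue lower), with TPH2 for comparison. FEV, GATA3 and LMX1B are all below the library level in FKO clusters 6, 8, 9 and 10. NKX6-1 and POU3F2 are high in WT cluster 9 and FKO cluster 6.

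Across clusters, 10 in each library, FEV, GATA2, GATA3 and LMX1B varied together, as did NKX6-1 and POU3F2. FEV and GATA3 had r of 0.90 in WT and 0.98 in FKO, GATA3 and LMX1B 0.87 and 0.96, and FEV and LMX1B 0.71 and 0.94. GATA2 had 0.66 and 0.91 with FEV, 0.73 and 0.94 with GATA3, and 0.71 and 0.90 with LMX1B. With NKX2-2, GATA2 had 0.72 in WT but -0.06 in FKO. NKX6-1 and POU3F2 had 0.93 in both. NKX2-2 and NKX6-1 had -0.08 and 0.76. The clusters of a library share its cells, depth and free RNA, so these values are a description.

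Among 3972 genes, the ones most like each factor over clusters, by the lower of the 2 libraries' r, were named for each factor. For FEV they were DNAJC12 (0.98), a co-chaperone of aromatic amino acid hydroxylases, GCHFR (0.95), a regulator of the enzyme that makes their cofactor, and SLC12A5 (0.94). For GATA3 they were GATA3-AS1 (0.98), DDC (0.96) and PLPPR5 (0.93), and for LMX1B GATA3-AS1 (0.90), MAOB (0.88) and SYT1 (0.88). GATA3-AS1 lies beside GATA3 on the opposite strand. The counting strand is not stated in the sources used here, so how far their reads were kept apart was not checked. For NKX6-1 the most alike was POU3F2 (0.93), for INSM1 TOX3 (0.91), for NKX2-2 GADD45G (0.81), for GATA2 ZNF322 (0.80), for POU3F2 ETFB (0.78) and for SOX4 HNRNPA0 (0.77).

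To ask whether the library differences held inside like cells, clusters were matched by their leading genes, a choice made after seeing the data, which gave 7 pairs. FEV was lower in FKO in 6 of 7 pairs, with log2 ratios from -1.21 to -0.16, and higher by 0.34 in the cycling pair. GATA3 was higher in FKO in 7 of 7 (0.32 to 1.90), as was LMX1B (0.93 to 2.39), and GATA2 in 6 of 7 (up to 2.57). GATA3 was close to the 0.47 of all genes in most pairs, with 5 of 7 between 0.32 and 0.60, and LMX1B was above it in every pair. That 0.47 is the median over whole libraries, not within each pair. Clusters left unpaired, among them the largest FKO cluster, held 23.64% of WT and 27.96% of FKO cells, so the counts of pairs say nothing of those. FKO cluster 7 was left unpaired although it shared 12 of 30 leading genes with WT cluster 3. WT cluster 3 was paired with FKO cluster 5, which shared 15. GATA2 was at 55.5 CPM in WT cluster 3 and 51.45 CPM in FKO cluster 7, with intervals that overlapped, so its direction there depended on the pairing.

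The progenitor factors did not keep 1 direction. NKX2-2 was lower in FKO in 5 pairs and higher in 2, from -2.13 in the stress pair to 3.38 in the LHX1 pair. INSM1 ranged from -2.15 to 1.46 in the same pairs. NKX6-1 was lower in 6 of 7 (-2.45 to 0.08) with an interval below 0 in 4. For WT cluster 3 the directions of NKX2-2, INSM1 and NKX6-1 also depended on the FKO cluster chosen. From WT cluster 3 to FKO clusters 5 and 7, NKX2-2 was at 18.6, 5.66 and 45.7 CPM. INSM1 was at 33.6, 21.3 and 34.1 CPM, and NKX6-1 at 7.99, 5.01 and 9.42 CPM. POU3F2 was higher in 5 of 7 (lowest value -0.08), and SOX4 in 5 of 7 with its lowest value of -0.27. TPH2 was higher in 3 and lower in 4.

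**Figure D5:**
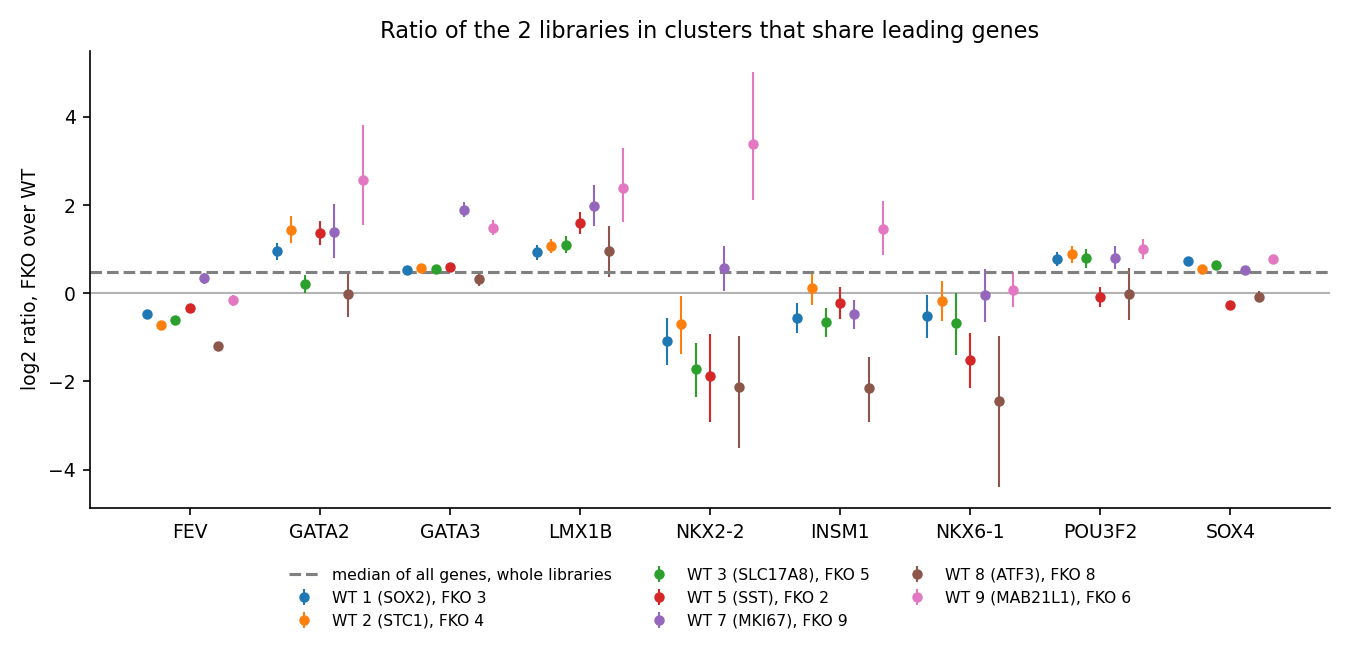
Log2 ratio of FKO over WT for each factor in 7 matched cluster pairs, with 95% counting intervals and a dashed line at the median of all genes over whole libraries. GATA3 and LMX1B lie above 0 in every pair, and FEV lies below 0 in 6 of the 7.

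The genes downstream and around the factors were split. Of 12 genes of serotonin handling 8 could be compared, 3 of them at least 2-fold higher in FKO, beside 20.7% of all genes: SLC6A4 (21.1 to 43.6 CPM, log2 1.05), SLC18A2 (19.2 to 50.6, 1.40) and MAOA (8.60 to 37.0, 2.11). TPH2 was at 198 CPM in WT and 161 CPM in FKO (-0.30), DDC at 269 and 225 (-0.26), and the pterin reductase gene QDPR at 116 and 72.1 (-0.69). Of 16 upstream factors 3 could be compared, and FOXA2 and EN1 (70.7 and 159 CPM, 1.17) were at least 2-fold higher in FKO, beside the same 20.7% of all genes, while SOX2 was at 107 and 84.6 CPM (-0.34). EN1, a midbrain and anterior hindbrain homeodomain factor, was thus higher in FKO, as was LMX1B.

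Paralogs of the factors also differed. Of 25 paralogs 7 could be compared, 3 at least 2-fold higher and 1 at least 2-fold lower in FKO, beside 20.7% and 1.74% of all genes. POU3F1 was at 147 CPM in WT and 68.4 CPM in FKO (-1.11), while POU3F3 was at 109 and 195.5 CPM (0.84), so POU3F2 and POU3F3 were higher in FKO and POU3F1 lower. SOX12 was at 36.2 and 76.1 CPM (1.07). Of 10 cofactors 6 could be compared, none past 2-fold. LDB1, which bridges LIM-homeodomain factors such as LMX1B, was at 27.3 and 46.0 CPM (0.75), LMO4 at 51.2 and 91.8 CPM (0.84), and ZFPM1, a partner of GATA factors, at 37.58 and 34.95 CPM (-0.10).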

How the data were processed

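The counts were deposited by the authors as filtered gene-by-barcode tables of UMIs from 10x 3′ libraries, 1 each labelled WT and FKO; per the labels they were made with Cell Ranger 7.0 on GRCh38, and the file header gives Cell Ranger 7.1.0. Kept barcodes had 1000 or more UMIs, 500 or more genes and no more than 10% of UMIs from mitochondrial genes. Doublets were the highest Scrublet scores (scanpy 1.11.5) at 0.8% per 1000 barcodes and were removed. Levels are pooled CPM with exact Poisson intervals, ratios have exact conditional intervals and shares Clopper-Pearson intervals. Cells were thinned to 2000 UMIs for shares and pairs. TPH2-positive and TPH2-negative cells were paired within 5% of total UMIs. Each library was clustered with Leiden at resolution 0.5 on 30 dimensions of 2000 variable genes. Other genes were named from fixed lists where they reached 20 CPM, or as the 3 most alike over clusters of at least 50 cells. The 5 extremes shared by both TPH2 contrasts, among 2107 ranked genes, were also named. Other filters, scalings, depths, pairings and cluster settings were tried. The members and lists were chosen with earlier results of these data known. The code was tested on simulated data. Python 3.11.15, numpy 2.4.6, scipy 1.17.1, pandas 2.3.3 and igraph 0.11.9 were used.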

Additional observations from a re-analysis of the deposited data

How the results depend on the processing

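Of 71 counts recomputed under an alternative, 63 stayed within 1.5 times and 8 did not, and of 279 values of single factors 9 had the other sign, 3 of them for a factor whose reported interval excluded 0 and 6 for NKX2-2 or INSM1, whose reported intervals held 0. NKX2-2 in FKO over WT was 0.19 in cells thinned to 2000 UMIs. GATA3 in FKO over WT was -0.0186 with median-of-ratios scaling, which by construction brings the median of all genes, 0.47, to 0. In TPH2-positive over TPH2-negative cells, SOX4 in WT was 0.0910 with at most 5% mitochondrial UMIs, which kept 340 WT cells, and GATA2 in FKO was -0.0167 in cells thinned to 2000 UMIs; the cause was not tested. Factors above the median of all genes were 2 with no CPM minimum, against 4, as that median was then 0.80. Pairs above their product were 1 in WT and 2 in FKO with at most 5% mitochondrial UMIs, 5 in WT with at most 20%, and 2 in FKO without its cycling and mesenchymal-like clusters; the cause was not tested. Factors whose highest cluster stood above all others were 6 in WT and 3 in FKO with 20 dimensions, and 4 in FKO at resolution 0.8, against 3 and 7; the cause was not tested. Same-cluster pairs, gene span, further draws of the thinning and library ratios without the cycling clusters were chosen after seeing the data. FEV in FKO over WT ranged from -1.28 to -0.57. No paired analysis was possible because each group has 1 library. The pairs of sparse factors rest on few cells, and the background shares of NKX2-2 and NKX6-1 on 192 thinned cells. With 1 library and 1 clone for each genotype, line, culture and genotype cannot be told apart.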

Other observations

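FKO cluster 11, with 24 cells led by HCRT, C1QL3, PDYN and QRFP, was too small to be ordered with the others. NKX2-2 was at 96.6 CPM there (63.7 to 141), from 27 UMIs, FOXA2 at 211 CPM, FEV at 354 CPM and NKX6-1 at 0 UMIs.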
